A study of Mus musculus with 18 samples.

Results

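Stage changes of the transcriptome in embryos that lack Oct4 were measured in 6 libraries, of the 18 in the series. Oct4 (gene Pou5f1) is a POU-family transcription factor of pluripotent cells. The 6 libraries were chosen by their labels alone and are 3 of Oct4 -/- (null) embryos at embryonic day E3.75 and 3 of Oct4 -/- embryos at E2.5. They are compared with 3 Oct4 +/+ (wild type) libraries at E3.75 and 3 at E2.5, and all animals were of the CD1 strain. The labels say that embryos were washed out of the oviduct or uterus, and that RNA was reverse transcribed from oligo(dT) and amplified, so that reads gather near the 3' ends of polyadenylated transcripts. According to the series text each genotype had 3 embryos at a stage, and nothing more is said on their parents or sex. The part of Pou5f1 that was removed is not given in the sources used here. The question is which of the changes between the stages go ahead without Oct4.

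Between these stages the mouse embryo turns from a cleavage-stage embryo into a blastocyst. Its outer cells become the trophectoderm, an epithelium whose keratins, junctions and sodium pump let it hold fluid in a cavity. Its inner cells go on to form the epiblast, which keeps the pluripotency factors, and the primitive endoderm, marked by GATA and SOX17 factors and by basement membrane proteins. Over the same time energy metabolism shifts towards more glucose use and respiration. Oct4 null embryos are known to reach the blastocyst stage, but their inner cells do not keep the pluripotent state.

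The genes of each stage came in a table of their own, with 7082 genes at E2.5 and 6648 at E3.75, and the 5893 genes that both held are the ones tested. Levels are CPM, read counts set against a fixed library total and here rescaled so that each library sums to 1000000 over these 5893 genes. Stage and table cannot be told apart: a difference in how the tables were made would appear as a stage change in both genotypes, though a scale that a table shares cancels in the comparison of null with wild type. The reads recovered behind the values numbered 865017 to 1437690 in null E3.75 libraries and 1361903 to 1922432 in null E2.5 libraries. They numbered 531784 to 1177830 in wild type E3.75 libraries and 868033 to 1233635 in wild type E2.5 libraries. In every group the third library was nearly a blend of the first and second. It departed from the best such blend with 1.15 to 1.32 times the variance that sampling gives, against 1.39 to 3.16 times when the first or second library was treated the same way. The third libraries may therefore not be independent. Counts of called genes are also given without them, for gene lists wherever a count moved by over 1.5 times, but overlaps of calls between the genotypes are not. Nothing says that the libraries came from separate litters, and the p-values cover the spread of these libraries alone. RNA encoded by the mitochondrial genome took 3.68% to 3.98% of reads in null E3.75 libraries and 2.75% to 2.86% in null E2.5 libraries.

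The targeted gene was read first. Pou5f1 stood at 224.5, 290.7 and 271.1 CPM in null E3.75 libraries, against 953.8, 1035 and 986.5 CPM in null E2.5 libraries. All null E3.75 libraries were lower, with a log2 change of -1.92 (standard error, SE, 0.13; adjusted p = 1.08e-10). In wild type it stood at 614.5, 388 and 559.1 CPM at E3.75, against 1854, 2138 and 1764 CPM at E2.5, a log2 change of -1.90. Null libraries were below wild type libraries at both stages, and the stage change differed by -0.02 with a 95% interval of -0.40 to 0.36. Since the deleted part is not given, it is not known whether these 3' reads lie in it, and they check the null label only in this limited way.

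In null embryos 1163 genes rose between the stages (19.7% of the 5893 tested) and 2031 fell (34.5%), by limma on log2(CPM + 1) at an adjusted p under 0.05. Of these, 465 rose at least 2-fold (7.89%) and 1052 fell at least 2-fold (17.9%). The split by direction depends on the scaling, because the median gene changed by -0.19 on the log2 scale. With TMM factors, which move the median to -0.01, 1519 genes rose and 1582 fell. Without the third libraries 722 rose (12.3%) and 1313 fell (22.3%), all of these 2035 genes being among the 3194 called with all libraries (54.2%). The null E3.75 and null E2.5 libraries did not overlap for 3983 genes (67.6%). In whole embryos, fewer cells of a type and less RNA per cell cannot be told apart, here and below.

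The greatest rise was that of Tspan8, a tetraspanin of epithelial membranes, which stood at 1186, 1244 and 1300 CPM in null E3.75 libraries, against 19.6, 24.0 and 23.5 CPM in null E2.5 libraries. Every null E3.75 library was far above every null E2.5 library, and the log2 change was 5.74 (SE 0.13; adjusted p = 1.14e-18). In wild type the log2 change was 5.54, and the difference of 0.20 had a 95% interval of -0.18 to 0.57. Cdx2, the homeobox factor that directs trophectoderm identity, stood at 500.8, 572.6 and 584.8 CPM in null E3.75 libraries, against 271.6, 250.4 and 268.7 CPM in null E2.5 libraries. The groups did not overlap, and the log2 change was 1.06 (SE 0.10; adjusted p = 1.81e-08) in null and 1.10 in wild type, with a 95% interval of the difference of -0.33 to 0.26.

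The promoters of Tspan8 and Cdx2, a pair of genes that rose in both genotypes, are shown because both hold the octamer ATGCAAAT, the letters that POU-family factors such as Oct4 recognise. They are the RefSeq windows from 250 bases before to 50 after the gene's start in build GRCm38.p6, read in the direction of the gene, at chr10:115817034-115817333 on the plus strand for Tspan8 and chr5:147307200-147307499 on the minus strand for Cdx2. Capitals mark the octamer.
Tspan8: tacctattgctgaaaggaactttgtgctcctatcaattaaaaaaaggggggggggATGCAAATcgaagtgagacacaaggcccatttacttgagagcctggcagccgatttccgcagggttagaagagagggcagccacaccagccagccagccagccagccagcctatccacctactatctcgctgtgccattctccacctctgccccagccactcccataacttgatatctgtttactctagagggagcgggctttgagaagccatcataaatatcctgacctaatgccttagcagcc
Cdx2: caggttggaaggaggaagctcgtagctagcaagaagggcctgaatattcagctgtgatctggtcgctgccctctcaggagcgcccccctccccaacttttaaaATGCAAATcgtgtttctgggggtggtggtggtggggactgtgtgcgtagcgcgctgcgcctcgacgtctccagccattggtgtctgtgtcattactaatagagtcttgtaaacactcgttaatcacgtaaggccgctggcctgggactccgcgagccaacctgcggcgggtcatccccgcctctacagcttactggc
Searched on both strands, the octamer was present in 1.74% of 32851 promoter windows in the RefSeq table. Of the tested genes, 4406 matched a window by symbol, and 57 of them (1.29%) held it. It was present for 11 of 347 genes that rose at least 2-fold in null (3.17%), for 6 of 815 that fell at least 2-fold (0.736%) and for 3 of 68 whose stage change differed between the genotypes (4.41%). The genes and the motif were picked after the values were seen, and a match of letters is not evidence of binding.

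The next greatest rise was that of Lgals1, which codes for the sugar-binding protein galectin-1. It stood at 1568, 1963 and 1822 CPM in null E3.75 libraries, against 56.4, 36.2 and 52.9 CPM in null E2.5 libraries. No library of either stage came near the other stage, and the log2 change was 5.19 (SE 0.19; adjusted p = 1.05e-14). Gjb5, a gap junction connexin, averaged 127.1 ± 19.0 CPM in null E3.75 and 8.62 ± 2.41 CPM in null E2.5 embryos (SD, n = 3 each), a log2 change of 3.755. Lcp1, an actin-bundling plastin, rose by 4.20, and Lgals4, another galectin, by 3.33. The glutathione transferase gene Gsta4 averaged 296.0 CPM in null E3.75 and 9.87 CPM in null E2.5 embryos, a log2 change of 4.78. Asns, which codes for asparagine synthetase, stood at 358.6, 403.2 and 373.8 CPM in null E3.75 libraries, against 23.3, 36.8 and 28.8 CPM in null E2.5 libraries. The groups were far apart, with a log2 change of 3.65 (SE 0.17). The list of 15 greatest rises was completed by Gm12169 (4.65), Ank, a pyrophosphate exporter (3.68), Upp1, uridine phosphorylase (3.65), Htra1, a secreted protease (3.39), Fabp3, a fatty acid carrier (3.35), and Fabp3-ps1 (3.32), along with Mt2 and Mt1 below. Fabp3-ps1 is annotated as a pseudogene of Fabp3, and reads could be split between them, so neither value is certain. All 15 also rose in wild type, with log2 changes of 2.86 to 5.94.

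Both metallothionein genes, whose small proteins bind zinc and copper, rose. Mt1 stood at 3693, 4778 and 3836 CPM in null E3.75 libraries, against 328.7, 367.1 and 330.1 CPM in null E2.5 libraries, with a log2 change of 3.57 (SE 0.17; adjusted p = 3.28e-13). Mt2 stood at 1727, 2261 and 1916 CPM in null E3.75 libraries, against 112.1, 162.5 and 123.9 CPM in null E2.5 libraries, with a log2 change of 3.89 (SE 0.20). For both genes every null E3.75 library was higher. In wild type the log2 changes were 2.94 for Mt1 and 3.69 for Mt2, and neither difference passed the test (adjusted p = 0.174 for Mt1 and 0.785 for Mt2). Their promoters are shown because metallothionein genes are known to be switched on through metal response elements. The windows lie at chr8:94178839-94179138 for Mt1 and chr8:94172368-94172667 for Mt2, both on the plus strand of GRCm38.p6, from RefSeq. Capitals mark the core letters of such elements, searched as TGCACNC and TGCGCNC on both strands, where N is any base.
Mt1: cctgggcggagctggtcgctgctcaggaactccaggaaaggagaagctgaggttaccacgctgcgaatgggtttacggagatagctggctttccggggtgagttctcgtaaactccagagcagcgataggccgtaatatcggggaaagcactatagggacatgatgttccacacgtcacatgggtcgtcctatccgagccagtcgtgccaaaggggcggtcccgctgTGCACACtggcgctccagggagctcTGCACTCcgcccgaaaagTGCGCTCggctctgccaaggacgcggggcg
Mt2: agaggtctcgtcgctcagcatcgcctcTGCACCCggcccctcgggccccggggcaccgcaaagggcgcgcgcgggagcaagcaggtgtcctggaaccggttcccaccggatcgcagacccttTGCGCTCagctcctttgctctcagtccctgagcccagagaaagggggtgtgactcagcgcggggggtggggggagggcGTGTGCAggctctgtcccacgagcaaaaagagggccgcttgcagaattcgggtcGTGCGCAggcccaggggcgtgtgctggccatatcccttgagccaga
The search found 3 matches for Mt1 and 4 for Mt2. At least 3 matches were present in 1.97% of all 32851 windows, and at least 1 in 25.7%. The shares that follow count genes, each by its window with the most matches, and so have another base than the shares of windows. At least 3 matches were held by 9 of 347 genes that rose at least 2-fold in null (2.59%). The same held for 29 of 815 that fell at least 2-fold (3.56%), against 4.02% of tested genes with a window. At least 1 match was held by 37.5% of those that rose, 41.8% of those that fell and 40.7% of tested genes with a window.

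Of the falls, that of Hand1, a helix-loop-helix factor of placental trophoblast, was the greatest. It stood at 4.70, 9.62 and 12.04 CPM in null E3.75 libraries, against 287.4, 301.5 and 267.1 CPM in null E2.5 libraries. The groups were far apart, and the log2 change was -4.95 (SE 0.25; adjusted p = 1.2e-12). Pdxk, the kinase that activates vitamin B6, stood at 30.6, 59.2 and 53.1 CPM in null E3.75 libraries, against 1149, 981.3 and 1074 CPM in null E2.5 libraries. Its log2 change was -4.51 (SE 0.19) in null and -4.20 in wild type. Ccne1, which codes for cyclin E1 of the entry into DNA replication, stood at 21.2, 15.5 and 15.6 CPM in null E3.75 libraries, against 214.4, 226.9 and 223.3 CPM in null E2.5 libraries. It was lower in every null E3.75 library, with log2 changes of -3.61 in null and -3.62 in wild type, and the 95% interval of the difference was -0.67 to 0.70. The hexokinase gene Hk1 fell by 3.31 on the log2 scale, Apoa1, the apolipoprotein of high-density lipoprotein, by 3.42, Elac2, which trims tRNA ends, by 3.64, and Kat2a, a histone acetyltransferase, by 3.19. The other falls among the 15 greatest were those of Tspan4 (-4.01), Tent5c (-3.83), 4930550L24Rik (-3.72), Galnt6 (-3.55), Nme4 (-3.32), Stmn3 (-3.25), Ppt2 (-3.17) and 1500009L16Rik (-3.13). All 15 also fell in wild type, with log2 changes of -4.31 to -2.08.

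**Figure D1:**
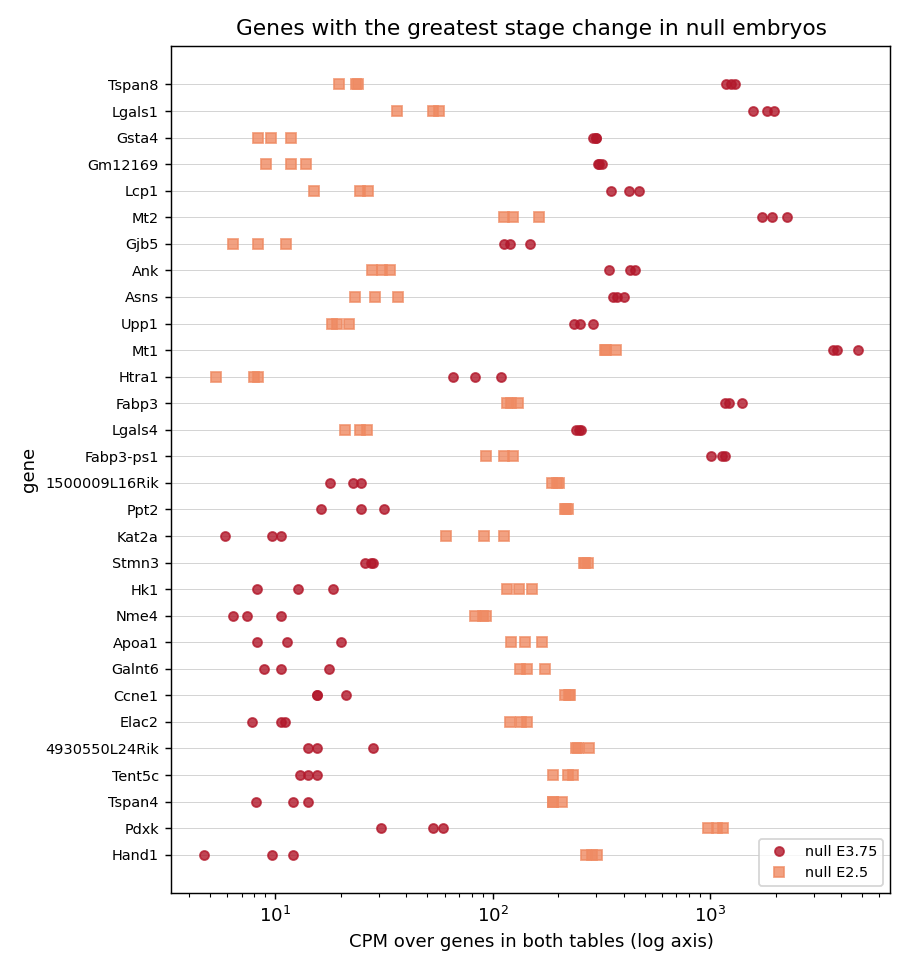
CPM of the 15 genes that rose most (top) and the 15 that fell most (bottom) in null embryos, on a log axis, with 1 point per library (circles null E3.75, squares null E2.5, 3 libraries each). Circles and squares do not overlap for any gene shown, which the choice of genes required; Tspan8 is at the top and Hand1 at the bottom.

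Trophectoderm regulators changed in both directions in null embryos. Of 12 members of the list in both tables, 6 rose (50%) and 4 fell (33.3%), beside 19.7% and 34.5% of all genes, so the share that fell was near that of all genes. The median log2 change was 0.24 beside -0.19 over all genes. With TMM factors 6 rose and 2 fell, and without the third libraries 4 rose and 2 fell. Hand1, described above, is a member and had the greatest change of the list, at -4.95. Gata3, a zinc finger factor of trophectoderm, stood at 171.6, 164.2 and 156.5 CPM in null E3.75 libraries, against 66.95, 63.4 and 72.1 CPM in null E2.5 libraries, a log2 change of 1.27 (SE 0.17; adjusted p = 2.38e-06). Eomes, a T-box factor of trophoblast, stood at 186.9, 154.6 and 190.4 CPM in null E3.75 libraries, against 80.5, 63.4 and 75.3 CPM in null E2.5 libraries, also a log2 change of 1.27 (SE 0.19). Neither gene's stages overlapped, and the wild type log2 changes were 1.83 for Gata3 and 2.03 for Eomes, with no difference passing the test (adjusted p = 0.242 and 0.146). Tead4, the DNA-binding partner of the Hippo pathway's coactivators, was lower in every null E3.75 library, at 205.8 ± 8.22 CPM in null E3.75 and 292.4 ± 28.2 CPM in null E2.5 embryos, a log2 change of -0.50 (SE 0.12; adjusted p = 0.00173), against -0.93 in wild type. Gata2, Elf5, Klf6 and Dppa1 were in the E3.75 table only, at 29.9 to 32.4, 18.9 to 24.3, 37.8 to 43.9 and 128.3 to 176.6 CPM of that table in null libraries, and were not tested. In wild type E3.75 libraries Gata2 stood higher, at 38.19 to 54.53 CPM. Elf5 (23.77 to 62.06 CPM), Klf6 (22.57 to 46.7 CPM) and Dppa1 (118 to 142.9 CPM) overlapped null.

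Genes of epithelium and cavitation rose more often than they fell, at 16 (55.2%) against 2 (6.90%) of 29, beside 19.7% and 34.5% of all genes, with a median of 0.53. This list holds Tspan8. Krt18, a keratin of simple epithelia, stood at 4011, 4815 and 4625 CPM in null E3.75 libraries, against 1626, 1879 and 1825 CPM in null E2.5 libraries, with a log2 change of 1.33 (SE 0.08; adjusted p = 3.85e-11). Its partner Krt8 stood at 1227, 1325 and 1213 CPM in null E3.75 libraries, against 728.2, 868.9 and 757.9 CPM in null E2.5 libraries, with a log2 change of 0.68 (SE 0.13). Every null E3.75 library was above every null E2.5 library for both keratins. Ctnnb1, which codes for beta-catenin of adherens junctions, averaged 854.7 ± 17.4 CPM in null E3.75 and 204.3 ± 15.4 CPM in null E2.5 embryos, a log2 change of 2.06, against 1.85 in wild type. Cldn6, a tight junction claudin, went the other way, with a log2 change of -2.60 in null and -2.64 in wild type. Chosen after their values were seen, Atp1b1, the sodium pump's beta subunit, rose by 2.19, and Cdh1, E-cadherin, by 1.05. In the Hippo pathway list 1 of 9 members rose (11.1%) and 6 fell (66.7%), with a median of -1.001. With TMM factors 2 rose and 4 fell, and without the third libraries 0 rose and 4 fell. Among those lower were the coactivator gene Wwtr1 (-1.19), Mob1a, an activator of the LATS kinases (-2.02), Nf2 (-1.001), an upstream activator, and Amot (-1.46), which holds the coactivators at junctions.

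**Figure D2:**
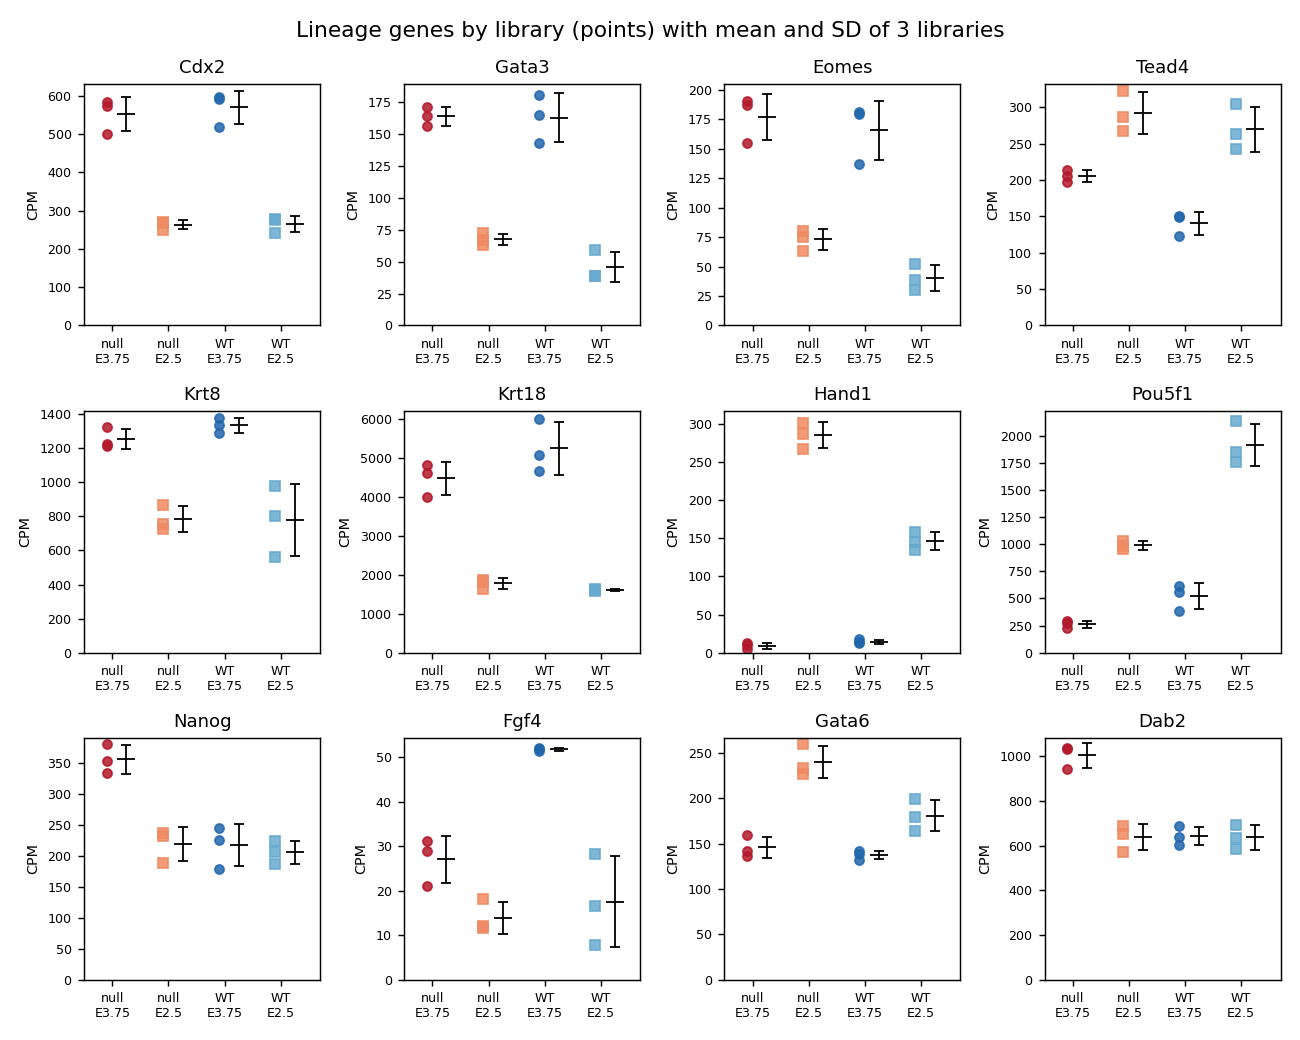
CPM of 12 lineage genes, 1 panel each, in null E3.75, null E2.5, wild type (WT) E3.75 and wild type E2.5 libraries, with 1 point per library and the mean and SD of 3 libraries beside them. Cdx2, Gata3, Eomes and the keratins were higher at E3.75 in both genotypes, while Nanog and Dab2 were higher at E3.75 in null libraries and overlapped between the stages in wild type.

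Pluripotency genes moved in both directions: of 18 in both tables, 6 rose (33.3%), 7 fell (38.9%) and 5 were not called, with a median of 0.07. Among all genes 19.7% rose and 34.5% fell, so the share that fell was near that of all genes. With TMM factors 7 rose and 6 fell, and without the third libraries 5 rose and 4 fell. Nanog, a homeobox factor of the epiblast, stood at 379.7, 332.9 and 353.3 CPM in null E3.75 libraries, against 232.4, 188.1 and 236.6 CPM in null E2.5 libraries. The null stages did not overlap, and the log2 change was 0.70 (SE 0.13; adjusted p = 0.000115). In wild type Nanog averaged 216.6 CPM at E3.75 and 205.3 CPM at E2.5, a log2 change of 0.07, but the difference of 0.63 did not pass the test (adjusted p = 0.079; 95% interval 0.25 to 1.01). L1td1, an RNA-binding protein of pluripotent cells, rose by 2.07 and Dppa5a, a KH-domain protein, by 1.496. Fbxo15, an F-box protein gene of pluripotent cells, stood at 159.9, 130.2 and 150.8 CPM in null E3.75 libraries, against 818.4, 834.3 and 812.9 CPM in null E2.5 libraries. It was much lower in each E3.75 library, with a log2 change of -2.48 (SE 0.12; adjusted p = 9.09e-13), against -1.99 in wild type. Tdh, threonine dehydrogenase, fell by 2.45. Fgf4, the growth factor by which epiblast cells act on primitive endoderm, rose by 0.91 (adjusted p = 0.0312), but its levels of 21.2, 28.9 and 31.2 CPM in null E3.75 and 12.04, 18.1 and 11.8 CPM in null E2.5 libraries are low. Its adjusted p was 0.0914 and 0.101 without the first and the third null E2.5 library, and 0.0863 and 0.109 without the second and the third null E3.75 library. Esrrb, an orphan nuclear receptor of pluripotent cells, was not called, at 46.1 CPM in null E3.75 and 38.9 CPM in null E2.5 embryos (log2 change 0.24, adjusted p = 0.316). Sox2 and Klf4 were not analysed here. Tdgf1, Spp1 and Bmp4 were listed at E3.75 only, at 41.6 to 58.9, 38.3 to 60.3 and 18.9 to 23.7 CPM in null libraries. In wild type E3.75 libraries they stood higher, at 73.86 to 144.8, 72.17 to 165.5 and 34.81 to 45.13 CPM, and they were not tested.

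Of 10 primitive endoderm genes in both tables, 1 rose (10%) and 4 fell (40%) in null embryos, near the 19.7% and 34.5% of all genes for so few members, with a median of -0.56. This count leaves out 8 members listed at E3.75 only and 1 listed at E2.5 only, so it does not describe the list as a whole. With TMM factors 2 rose and 4 fell. In wild type 2 rose and 3 fell with all libraries, with a median of 0.09. The difference of stage change passed the test for 1 of the 10, Lrpap1. Gata6, the earliest factor of the lineage, stood at 136.4, 142.0 and 159.3 CPM in null E3.75 libraries, against 260.3, 233.3 and 227.5 CPM in null E2.5 libraries. It was lower in every null E3.75 library, with a log2 change of -0.72 (SE 0.12; adjusted p = 4.53e-05), against -0.39 in wild type. Cited1, a transcriptional coactivator, stood at 499.6, 340.3 and 387.2 CPM in null E3.75 libraries, against 1810, 1380 and 1575 CPM in null E2.5 libraries, with log2 changes of -1.96 in null and -2.03 in wild type. Lamc1, a laminin chain of basement membranes, fell by 1.14, and Lrpap1, described below, fell too. The member that rose was Lamb1, another laminin chain, named after its values were seen. It stood at 81.1, 117.6 and 104.8 CPM in null E3.75 libraries, against 52.7, 59.7 and 61.4 CPM in null E2.5 libraries, a log2 change of 0.78 (SE 0.18; adjusted p = 0.000784), against 0.98 in wild type. The later factors Gata4 and Sox17 and the receptor gene Pdgfra were listed at E3.75 only and were not tested. They were low in null libraries, at 6.94, 11.6 and 6.96 CPM for Gata4, 9.25, 19.6 and 18.8 CPM for Sox17 and 5.78, 10.9 and 12.5 CPM for Pdgfra. In wild type E3.75 libraries Gata4 stood at 11.04 to 31.97 CPM, which overlaps null. Sox17 stood at 32.26 to 45.13 CPM there and Pdgfra at 20.83 to 33.85 CPM, above every null library. The basement membrane genes Lama1 and Sparc were also listed at E3.75 only. Lama1 stood at 46.6 to 52.3 CPM in null and 83.2 to 167.4 CPM in wild type libraries. Sparc stood at 65.9 to 77.9 CPM in null and 101.9 to 135.4 CPM in wild type libraries. Among FGF and MAPK genes 2 of 7 rose (28.6%) and 1 fell (14.3%), with a median of -0.07 that turned to 0.11 with TMM factors; without the third libraries 1 rose and 1 fell. Dusp4, a phosphatase induced by MAPK signalling, rose by 1.57 and Map2k1, a MAPK kinase, fell by 1.11.

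Endocytosis and lysosome genes rose more often than they fell, at 17 (58.6%) against 5 (17.2%) of 29, beside 19.7% and 34.5% of all genes, with a median of 0.33. Psap, the precursor of the saposins that aid lipid breakdown in lysosomes, stood at 11650, 12880 and 11790 CPM in null E3.75 libraries, against 3455, 3831 and 3450 CPM in null E2.5 libraries. The stages were far apart, with a log2 change of 1.76 (SE 0.07; adjusted p = 1.73e-14), against 1.67 in wild type. Gm2a, a ganglioside activator protein, rose by 2.002, Lrp2, the endocytic receptor megalin, by 1.51 and Ctsl, cathepsin L, by 1.14.

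Of 65 nuclear genes of oxidative phosphorylation, 43 rose (66.2%) and 2 fell (3.08%), beside 19.7% and 34.5% of all genes, with a median of 0.53. Atp5g3, a subunit of the ATP synthase ring, stood at 5122, 5323 and 5482 CPM in null E3.75 libraries, against 2995, 2775 and 3010 CPM in null E2.5 libraries, a log2 change of 0.86 (SE 0.06; adjusted p = 2.67e-10). The cytochrome oxidase genes Cox7b, Cox6b1 and Cox5a rose by 1.56, 1.23 and 0.93. In the TCA cycle list 14 of 25 rose (56%) and 3 fell (12%), with a median of 0.42. With TMM factors 18 rose and 0 fell, and without the third libraries 9 rose and 0 fell. Idh3b, a subunit of isocitrate dehydrogenase, rose by 1.11 and Suclg1, of succinyl-CoA ligase, by 0.86, while Got1, an aspartate aminotransferase of the malate shuttle, rose by 1.72. In wild type 19 of the 25 rose and 1 fell with all libraries, with a median of 0.76. The difference of stage change passed the test for 1 of the 25, with the null change below that of wild type. In null, 5 of 10 glycolysis genes in both tables rose (50%) and 2 fell (20%), with a median of 0.75. This leaves out 4 members listed at E3.75 only and 1 listed at E2.5 only, which were not tested. At E3.75 Hk2 stood at 8.09 to 13.81 CPM in null and 15.28 to 30.09 CPM in wild type libraries. Eno1 (7.27 to 17.34 against 24.45 to 27.77 CPM) and Slc16a1 (4.62 to 5.82 against 12.74 to 15.62 CPM) were also lower in null. Pgk1 (6.54 to 13.22 against 11.04 to 26.33 CPM) overlapped. The glucose transporter gene Slc2a3 averaged 1421 CPM in null E3.75 and 728.4 CPM in null E2.5 embryos, a log2 change of 0.96, and Pkm, pyruvate kinase, rose by 1.37, beside the fall of Hk1. Of 9 mitochondrially encoded genes, 4 rose (44.4%) and 3 fell (33.3%), with a median of 0.10: mt-Co1, a cytochrome oxidase subunit, rose by 1.97 and mt-Rnr2, a mitochondrial ribosomal RNA, fell by 2.64.

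Ribosome biogenesis genes mostly fell, with 1 of 22 higher (4.55%) and 17 lower (77.3%), beside 19.7% and 34.5% of all genes, and a median of -0.77; Bop1, a factor of large subunit assembly, fell by 2.25, whereas Ncl, nucleolin, rose by 0.90. Of 67 cytosolic ribosomal protein genes 14 rose (20.9%) and 16 fell (23.9%), with a median of -0.06. With TMM factors 20 rose and 7 fell with a median of 0.12, and without the third libraries 8 rose and 7 fell. Rpl4 rose by 0.39 and Rps3 fell by 0.40. Many ribosomal protein genes have near-identical pseudogenes, so single members are uncertain. Of 29 cell cycle genes 2 rose (6.90%) and 16 fell (55.2%), with a median of -0.50; without the third libraries 1 rose and 12 fell. Plk1, a kinase of mitosis, stood at 63.5, 44.4 and 51.0 CPM in null E3.75 libraries, against 183.5, 241.9 and 206.2 CPM in null E2.5 libraries. The stages did not overlap and the log2 change was -1.98 (SE 0.18), against -1.27 in wild type. Tyms, thymidylate synthase, fell by 1.18. In the proteasome list 19 of 31 rose (61.3%) and 4 fell (12.9%), with a median of 0.38, and without the third libraries 12 rose and 2 fell; Psmb6, a core subunit, rose by 0.92 and Psmd3, of the regulatory lid, fell by 0.84. Cytoskeleton genes rose in 20 of 25 cases (80%) and fell in 2 (8%), or in 17 and 1 without the third libraries, with a median of 1.11, the highest of the 24 lists with members in both tables. Among these Anxa2, a membrane-binding annexin, rose by 2.05, Tubb5, a beta-tubulin, by 1.78, Myl12a, a myosin light chain, by 1.76 and Arpc2, of the actin-branching complex, by 1.47.

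**Figure D3:**
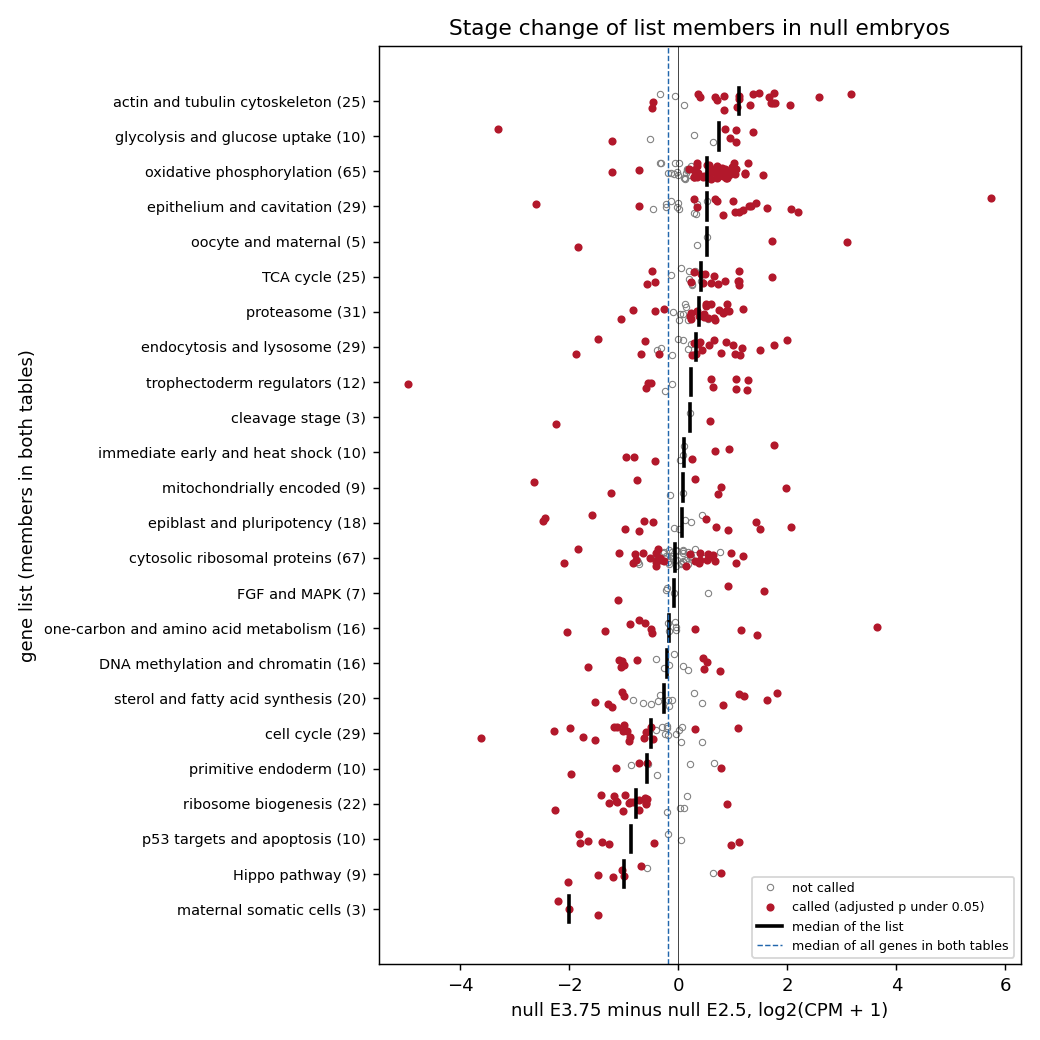
Log2(CPM + 1) change, null E3.75 minus null E2.5, of the members of 24 gene lists (1 point per gene, filled where called), ordered by the list median (black bar), with the number of members in brackets. The dashed line is the median of all genes, at -0.19; the cytoskeleton list has the highest median, 1.11, and the globin genes of the maternal somatic cells list the lowest.

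Smaller lists had members on both sides, and are read beside the 19.7% higher and 34.5% lower among all genes. List counts, here and above, cover only members in both tables. In one-carbon and amino acid metabolism 4 of 16 rose (25%) and 7 fell (43.8%), with a median of -0.17 that turned to 0.01 with DESeq2 size factors. With TMM factors 4 rose and 4 fell, and without the third libraries 1 rose and 4 fell. Gcsh, of the glycine cleavage system, fell by 2.03 while Asns rose. Of 20 sterol and fatty acid synthesis genes 5 rose (25%) and 5 fell (25%), with a median of -0.26, near the values of all genes. In that list Scd2, a fatty acid desaturase, rose by 1.12 and Fasn, fatty acid synthase, was lower, at -0.996. Of 16 chromatin genes 4 rose (25%) and 6 fell (37.5%), with a median of -0.21 beside -0.19 over all genes, and without the third libraries 1 rose and 3 fell. Smarca4, the ATPase of a remodelling complex, was among those that fell, at -1.05. Of 10 genes of p53 and apoptosis 2 rose (20%) and 6 fell (60%), with a median of -0.86 and with Perp at -1.26 and Bid at -1.82; without the third libraries 1 rose and 5 fell. Of 10 immediate early and heat shock genes 4 rose (40%) and 3 fell (30%), with a median of 0.10. With TMM factors 5 rose and 2 fell, and without the third libraries 2 rose and 2 fell. The endoplasmic reticulum chaperone Hspa5 was higher by 1.75 and the co-chaperone Dnajb1 lower, at -0.96. Wild type medians were -0.31 for one-carbon and amino acid metabolism, -0.23 for sterol and fatty acid synthesis and -0.54 for chromatin. They were -0.34 for p53 and apoptosis and 0.23 for immediate early and heat shock genes.

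Genes of the oocyte list moved in both directions. Of 5 oocyte genes measured at both stages, 2 rose (40%) and 1 fell (20%), beside 19.7% and 34.5% of all genes, with a median of 0.52. So few members cannot set the list apart from all genes. Ooep stood at 136.4, 122.8 and 162.8 CPM in null E3.75 libraries, against 14.3, 16.5 and 15.5 CPM in null E2.5 libraries, a log2 change of 3.10 (SE 0.24; adjusted p = 9.42e-10). Khdc3 stood at 1768, 1809 and 1913 CPM in null E3.75 libraries, against 510.8, 601.5 and 557.1 CPM in null E2.5 libraries, a log2 change of 1.72. Both genes code for parts of the subcortical maternal complex, both were higher in every null E3.75 library, and both rose in wild type (2.92 for Ooep and 1.99 for Khdc3). Padi6, of the same complex, fell by 1.83. Of 3 cleavage-stage genes in both tables, whose median was 0.21, Pramel6 rose by 0.58 and Sp110 fell by 2.24. That median leaves out 3 members listed at E2.5 only and not tested, so it does not describe the list as a whole. In null E2.5 libraries these stood at 136.3 to 246.7 CPM for Obox6, 19.29 to 29.65 CPM for Ddit4l and 6.24 to 10.28 CPM for Pramel7.

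The 3 globin genes measured at both stages, taken here as markers of maternal blood, all fell (100%), beside 34.5% of all genes. Their summed level was 179 to 482 CPM in null E3.75 libraries, against 1102 to 1363 CPM in null E2.5 libraries, and 117.5 to 180.1 CPM in wild type E3.75 libraries, against 1050 to 1467 CPM in wild type E2.5 libraries. Hbb-bs fell by 2.20 and Hbb-bt by 1.47 in null, and Hba-a1 averaged 63.9 CPM in null E3.75 and 244.7 CPM in null E2.5 embryos. Reads of globin genes can be split between near-identical copies. Of the other markers on that list, Muc1 and Lyz2 were listed at E3.75 only, at 9.25 to 13.2 and 27.8 to 47.3 CPM in null libraries. The part of such RNA in other results was not tested.

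Among the 5893 genes in both tables, most of the stage changes of wild type embryos were present in null embryos. The 755 genes listed at E3.75 only and the 1189 listed at E2.5 only were not tested. The shares below therefore leave out genes too low for the table at 1 of the stages, and are not shares of all stage changes. In wild type 1223 genes rose (20.8%) and 2036 fell (34.5%), 3259 in all (55.3%). By at least 2-fold, 537 rose (9.11%) and 1035 fell (17.6%), 1572 together. Of those 1572, 1333 (84.8%) were called in null in the same direction, 1549 (98.5%) had the same sign, and 1 was called in the opposite direction. The share was 428 of 537 rises (79.7%) and 905 of 1035 falls (87.4%), beside 19.7% and 34.5% called in null among all genes. In the other direction, 1302 of 1517 null changes of at least 2-fold (85.8%) were called in wild type with the same sign. Over all sizes 2443 genes were called in both with the same sign, which is 76.5% of the null calls and 75.0% of the wild type calls. These overlaps use all libraries. Without the third libraries the null calls numbered 2035 in place of 3194, and the overlaps are not given for that fit. Across the 5893 genes the log2 changes of the genotypes had a Pearson correlation of 0.85 and a Spearman correlation of 0.83. This describes genes of the same pair of tables, which share their stage and their processing, and genes are not independent replicates. Among genes picked for a 2-fold change in wild type, the median ratio of the null to the wild type log2 change was 0.85, and among genes picked for a 2-fold change in null the median ratio of the wild type to the null log2 change was 0.89. The wild type list median, with null in brackets, was 0.61 (0.24) for trophectoderm regulators and 0.68 (0.53) for epithelium and cavitation. It was 0.25 (0.33) for endocytosis and lysosome, 0.55 (0.53) for oxidative phosphorylation and 0.64 (0.75) for glycolysis. It was -0.73 (-0.77) for ribosome biogenesis, -0.36 (-0.50) for the cell cycle, 0.23 (0.38) for the proteasome and 1.19 (1.11) for the cytoskeleton. It was -0.16 (0.07) for pluripotency and -1.08 (-1.001) for Hippo.

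**Figure D4:**
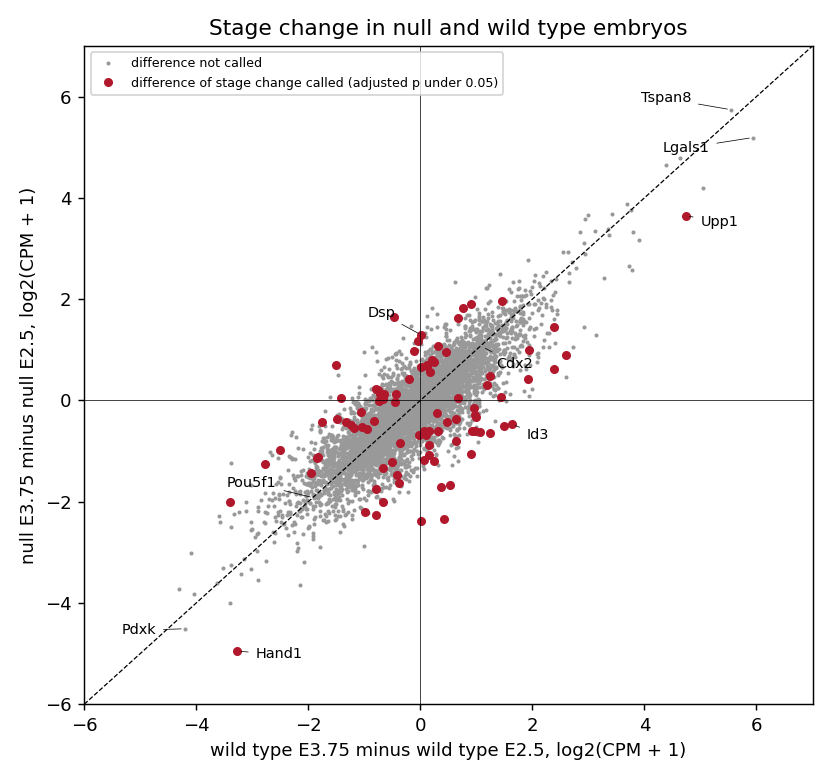
Log2(CPM + 1) stage change in null embryos (vertical axis) against that in wild type embryos (horizontal axis) for 5893 genes; the dashed line marks equal change and red points mark the 90 genes whose stage changes differed. Most points follow the line, with Tspan8 at the top and Pdxk and Hand1 at the bottom left.

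The stage change itself differed between the genotypes for 90 genes (1.53%), 43 with a null change above that of wild type (0.730%) and 47 with one below it (0.798%). The difference was at least 2-fold for 14 of those above (0.238%) and 30 of those below (0.509%). The difference had an unadjusted p under 0.05 for 965 genes (16.4%). Its 95% interval lay within 1 log2 unit of 0 for 2976 genes (50.5%), and for 667 of the 1572 genes with a wild type change of at least 2-fold (42.4%), so for the rest a 2-fold difference in the change was not excluded at this depth and spread. Of those 1572 genes, 31 (1.97%) passed the test of the difference, and the null change was the smaller in 29 of them. Of the 1517 genes with a null change of at least 2-fold, 33 (2.18%) passed it, and the wild type change was the smaller in 25 of them. Choosing genes by a great change in 1 genotype favours a smaller change in the other, so neither count is evidence of a direction. Among the 90, 34 were called in both genotypes in the same direction, 8 in both in opposite directions, 25 in wild type only and 23 in null only. These calls rest on few libraries: without the third libraries limma called 0 (381 genes at an unadjusted p under 0.05), and with 1 library left out the count above 0 ran from 4 to 136 and the count below 0 from 3 to 153. The lowest counts came without the third wild type E3.75 library (4 and 3) and the highest without the second wild type E2.5 library (136 and 153). Only 7 genes passed with any 1 of the 12 libraries left out: Id3, Mfge8, C130073F10Rik, Vamp8, Prelid2, Pemt and Timd2.

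Id3, an inhibitor of helix-loop-helix factors and a target of BMP signalling, had the lowest p of the difference among the genes named by rule. It stood at 64.7, 71.8 and 67.3 CPM in null E3.75 libraries, against 124.9, 68.7 and 97.7 CPM in null E2.5 libraries, and the null stages overlapped (log2 change -0.47, adjusted p = 0.079). In wild type it stood at 119.4, 126.4 and 142.0 CPM at E3.75, against 29.1, 41.2 and 56.4 CPM at E2.5, a rise of 1.64. The difference was -2.11 (SE 0.31; adjusted p = 0.00245). Apoe, an apolipoprotein, averaged 46.3 CPM in null E3.75 and 24.8 CPM in null E2.5 embryos, against 101.6 CPM in wild type E3.75 and 15.9 CPM in wild type E2.5 embryos. Its rise was 0.89 in null and 2.60 in wild type, a difference of -1.71 (adjusted p = 0.0354). Mep1b, a meprin protease subunit, was not called in null, with a log2 change of 0.62, and rose by 2.39 in wild type. Upp1 rose in both, to 236.3, 290.0 and 252.0 CPM in null E3.75 libraries and to 656.9, 466.0 and 573.3 CPM in wild type E3.75 libraries. No null library reached a wild type one at E3.75, and the difference was -1.09 (SE 0.27; adjusted p = 0.0466).

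Other genes went further in null embryos. Dsp, which codes for the desmosome protein desmoplakin, stood at 125.8, 113.9 and 114.7 CPM in null E3.75 libraries, against 44.4, 48.0 and 50.7 CPM in null E2.5 libraries. The null stages did not overlap (log2 change 1.29, SE 0.16). In wild type Dsp stood at 88.6, 102.2 and 85.2 CPM at E3.75, against 107.3, 76.5 and 90.4 CPM at E2.5, where the stages overlapped (log2 change 0.02). The difference of 1.27 (SE 0.23) had an adjusted p of 0.0113. Dab2, an adaptor of endocytosis at the apical surface, stood at 1033, 941.0 and 1036 CPM in null E3.75 libraries, against 572.4, 687.8 and 652.7 CPM in null E2.5 libraries. It rose by 0.66 in null, against 0.02 in wild type, a difference of 0.64 (adjusted p = 0.0182). The fall of Hand1 was also the greater in null: in wild type it stood at 13.5, 17.3 and 12.4 CPM at E3.75, against 135.3, 144.7 and 158.5 CPM at E2.5. At E2.5 every null library was above every wild type library, at E3.75 every null library was below, and the difference of the log2 changes was -1.69 (SE 0.35; adjusted p = 0.0208). The E3.75 levels were low, and the third libraries lay close, at 12.04 CPM in null and 12.4 CPM in wild type. There 1 read was worth 0.70 CPM in null and 1.74 CPM in wild type, so the order of the genotypes at E3.75 is uncertain. Cdk1, the kinase of entry into mitosis, fell by 1.75 on the log2 scale in null, against -0.80 in wild type, a difference of -0.95 (adjusted p = 0.0304). Ebp, an isomerase of sterol synthesis, fell by 1.22 in null, against -0.51 in wild type.

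Some falls were smaller in null embryos. Xrcc1, a scaffold of DNA single-strand break repair, stood at 68.2, 39.2 and 43.2 CPM in null E3.75 libraries, against 110.6, 124.7 and 120.7 CPM in null E2.5 libraries, a log2 change of -1.27. In wild type it stood at 23.1, 33.8 and 26.6 CPM at E3.75, against 148.7, 260.1 and 187.5 CPM at E2.5, a log2 change of -2.77. Both genotypes had lower levels at E3.75 with no overlap, and the difference was 1.51 (SE 0.31; adjusted p = 0.0206). Lrpap1, a chaperone of the LDL receptor family, averaged 1922 CPM in null E3.75 and 2855 CPM in null E2.5 embryos, against 1469 CPM in wild type E3.75 and 2844 CPM in wild type E2.5 embryos. Its difference was 0.38 (SE 0.10; adjusted p = 0.0471). Timd2 and Pemt, chosen after their values were seen because they passed with any library left out, had higher levels. Timd2, a surface receptor of the TIM family, averaged 3191 CPM in null E3.75 and 3738 CPM in null E2.5 embryos, against 1719 CPM in wild type E3.75 and 3590 CPM in wild type E2.5 embryos, a difference of 0.83 (adjusted p = 0.000482). Pemt, which makes phosphatidylcholine by methylation, averaged 1777 CPM in null E3.75 and 3924 CPM in null E2.5 embryos, against 1011 CPM in wild type E3.75 and 3621 CPM in wild type E2.5 embryos, a difference of 0.71 (adjusted p = 0.00339).

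**Figure D5:**
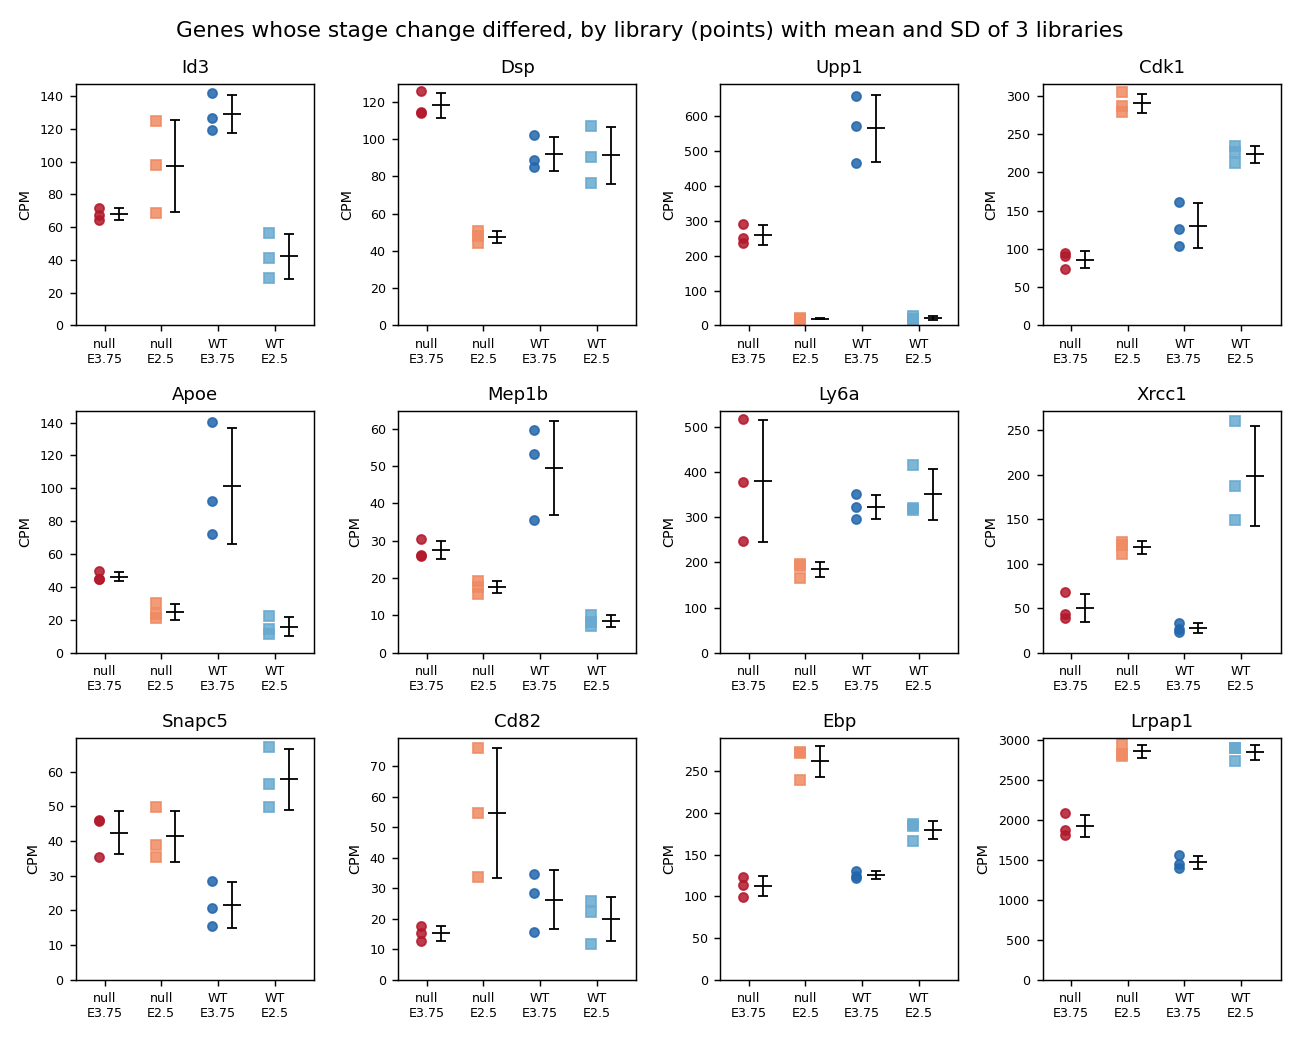
CPM of 12 genes whose stage change differed between the genotypes, 1 panel each, in null E3.75, null E2.5, wild type (WT) E3.75 and wild type E2.5 libraries, with 1 point per library and the mean and SD of 3 libraries beside them. Id3 was higher at E3.75 in wild type and overlapped between the stages in null, and Dsp was higher at E3.75 in null and overlapped between the stages in wild type.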

How the data were processed

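RNA of mouse embryos was measured by RNA sequencing after oligo(dT) priming and amplification, per the labels' protocols. The authors deposited a table of CPM per stage, each column summing to 1000000 over its own table. The submitters' processing notes name edgeR and mm9, and no aligner or annotation is given in the sources used here. Low genes are missing from the tables: the third-highest value of each gene was at least 10.3 CPM at E2.5 and 10.4 CPM at E3.75. All 82380 values used were whole multiples of the value of 1 read within 0.01 reads, which gave the depth, and 1 read was worth 0.520 to 1.881 CPM. Of the 5893 genes in both tables, 5804 had a symbol by identifier. Of reads, 97.6% to 98.3% lay in these genes. Genes in 1 table only (1189 at E2.5, 755 at E3.75) were described by deposited CPM and not tested.

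Each library was rescaled over the shared genes, and limma 3.58.1 (R 4.3.3) with a variance trend was fitted to log2(CPM + 1), whose fold change understates that of low genes. The fit took 12 libraries as 4 group means, with contrasts for the null stage change, the wild type stage change and their difference, two-sided, with Benjamini-Hochberg adjustment over all 5893 genes and a threshold of 0.05. edgeR 4.0.16 and DESeq2 1.42.0 on recovered reads, TMM and size factors, other pseudocounts, a mean minimum of 20 CPM, thinned reads, a replicate block and left-out libraries were the alternatives. Counting error in amplified RNA without stated molecular identifiers is not covered by these errors.

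Named genes are Pou5f1, the 15 greatest null changes per direction among called genes with a mean of at least 20 CPM and no overlap of the null stages, the 10 greatest differences per direction, fixed lineage genes and up to 4 called members per list. The 25 gene lists (1 of them, of Y-linked genes and Xist, had no member in both tables) and the members were chosen with earlier results of these data known, so no list was tested as a set. Promoter windows and their coordinates are those of RefSeq for GRCm38.p6, used only for sequence and not joined to mm9 positions.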

Additional observations from a re-analysis of the deposited data

Results flagged for a closer look

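The genes below are those, among the genes named by rule, whose stage change differed between null and wild type embryos by the test of the difference itself; each value is the null log2 change minus the wild type log2 change on the log2(CPM + 1) scale. No cause was tested. The differences described above were -2.11 for Id3, -1.71 for Apoe, -1.77 for Mep1b, -1.69 for Hand1, -1.09 for Upp1, -0.95 for Cdk1, -0.71 for Ebp, 1.27 for Dsp, 0.64 for Dab2, 1.51 for Xrcc1 and 0.38 for Lrpap1.

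Among the globins, Hba-a1 averaged 63.9 CPM in null E3.75 and 244.7 CPM in null E2.5 embryos, against 24.6 CPM in wild type E3.75 and 268.9 CPM in wild type E2.5 embryos, a difference of 1.41. Ly6a, a surface antigen, averaged 381.3 CPM in null E3.75 and 184.8 CPM in null E2.5 embryos, with overlapping wild type stages at 323.5 CPM in E3.75 and 350.8 CPM in E2.5 embryos, a difference of 1.09. Snapc5, a subunit of the complex that starts small nuclear RNA genes, averaged 42.4 CPM in null E3.75 and 41.3 CPM in null E2.5 embryos, against 21.5 CPM in wild type E3.75 and 57.8 CPM in wild type E2.5 embryos, a difference of 1.45. Ppcdc, an enzyme of coenzyme A synthesis, fell by 0.98 in null, against -2.50 in wild type, a difference of 1.52. Fam8a1 and Slc35f2 were not called in null and fell in wild type, with differences of 1.33 and 1.12. Elobl had a difference of 2.12, and Rpsa-ps10, annotated as a ribosomal protein pseudogene that can share reads with its parent, had one of 1.22.

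On the other side, the tetraspanin gene Cd82 averaged 15.2 CPM in null E3.75 and 54.7 CPM in null E2.5 embryos, with overlapping wild type stages at 26.2 CPM in E3.75 and 19.95 CPM in E2.5 embryos, a difference of -2.09. Nol4l fell by 1.67 in null and was not called in wild type, with a difference of -2.20. Ndufaf1, an assembly factor of respiratory complex I, averaged 14.6 CPM in null E3.75 and 29.1 CPM in null E2.5 embryos, against 29.2 CPM in wild type E3.75 and 14.8 CPM in wild type E2.5 embryos, a difference of -1.97. Cic, a transcriptional repressor, Snap47, a SNARE protein, and Klc4, a kinesin light chain, had differences of -1.68, -1.57 and -1.54, with lower means at E3.75 in null and higher means at E3.75 in wild type. Of these 3, Cic did not pass the test in null (adjusted p = 0.0818).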

How the results depend on the processing

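Without the third libraries 722 genes rose and 1313 fell in null, 789 rose and 1340 fell in wild type, and the test of the difference called 0 above and 0 below, 0 of them among wild type changes of at least 2-fold. With 1 library left out, differences above 0 numbered 4 to 136, those below 0 numbered 3 to 153, and those among wild type changes of at least 2-fold 3 to 117. On thinned reads these were 13, 12 and 10. edgeR gave 47 differences among wild type changes of at least 2-fold, and DESeq2 gave 68 differences above 0 and 709 null rises of at least 2-fold. With the replicate number as a replicate block, 25 differences lay above 0 and 15 among wild type changes of at least 2-fold. Same-numbered null libraries of the stages deviated together with correlations of 0.0368, 0.0192 and 0.0276, against -0.0257 to 0.0078 for libraries of unlike number. All of these are near 0, and whether the numbers mark a shared litter or batch was not tested.

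The null calls split into 1542 higher and 1552 lower with size factors, 1652 and 1726 with edgeR, and 1576 and 1572 with DESeq2. Of the 3194 null calls, 2404 passed with any 1 of the 12 libraries left out, and none was called in the other direction in any alternative run. The null stage changes of Fgf4, Etv5, Apoe, Klc4, Snap47, Ndufaf1, Ppcdc and Hdac2 lost their call in at least 1 alternative; 126 of the 134 named null changes did not. Named differences between the genotypes were less stable, and all lost their call without the third libraries. The difference of Upp1 lost its call in 16 of 23 alternatives, and those of Ebp and Cic in 15 of 23 each. That of Id3 lost it in 1 of 23. The depth limits low genes: 1 read was worth 0.520 to 1.881 CPM.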
